A study of Mus musculus with 10 samples.

Results

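The miR-29 family in mouse liver consists here of the 3 rows of the deposited miRNA table named miR-29a, miR-29b and miR-29c, out of 285 miRNAs in all. They were chosen by name, after removal of the species prefix and of any arm suffix, and not by their values. Each member had 1 row, with no arm in its name. Small RNA was sequenced from liver of mice 14 weeks of age: 5 Tsc1 mutant libraries, from animals labelled L-Tsc1KO, and 5 control libraries from littermates. Tsc1 is a subunit of the TSC complex, which restrains mTORC1, and the study asked how its loss in liver alters miRNAs. The labels and files used here do not state the promoter or Cre line behind the liver knockout, or whether each replicate was a separate animal. P-values therefore measure the spread between these libraries. Messenger RNA of Tsc1 was not analysed here, so no check of the genotype labels by the deleted gene was made. Whole liver is a mixture of cells, and in such samples fewer cells of a type and less RNA per cell cannot be told apart.

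MicroRNAs of this family bind messenger RNAs through the seed near their 5′ end and lower their stability and translation. The family is best known for targeting collagens and other proteins of the extracellular matrix. In liver it has been studied in stellate cells, the main source of matrix in fibrosis, and in hepatocytes, where it has been linked to insulin signalling. The mature strand that acts as guide comes from the 3′ arm, whose sequences (RefSeq, GRCm38.p6) follow because they show what the members share and how little separates them. Capitals mark the seed, bases 2 to 8.
miR-29a: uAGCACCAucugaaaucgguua
miR-29b: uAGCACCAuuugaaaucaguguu
miR-29c: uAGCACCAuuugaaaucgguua

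All 3 members carry the seed AGCACCA, and 0 of the 236 other listed miRNAs with a RefSeq mature sequence had it. Positions counted from 1 at the 5′ end, miR-29a and miR-29c differed over 22 bases by 1 substitution, C10U. Between miR-29a and miR-29b, 4 of the 22 shared positions differed, namely C10U, G18A, U21G and A22U. Between miR-29b and miR-29c, the 3 differences were A18G, G21U and U22A. With 1 base between miR-29a and miR-29c, reads carrying a sequencing error could be assigned to the wrong member, and the labels do not say how reads with mismatches were treated. Values of miR-29c in particular are uncertain to that extent.

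The members come from 2 loci, each with a pair of hairpins. On chromosome 6, on the minus strand, Mir29a lies at chr6:31062660-31062747 and Mir29b-1 at chr6:31063023-31063093, with 275 bases between them (GRCm38). No other gene of GENCODE M21 overlaps Mir29a, and the lincRNA Gm27019 overlaps an end of Mir29b-1. On chromosome 1, on the plus strand, Mir29b-2 lies at chr1:195037040-195037120 and Mir29c at chr1:195037547-195037634, with 426 bases between them. Both overlap exons of the non-coding host gene A330023F24Rik, and, on the opposite strand, exons of Cd46, which encodes a complement regulator. The pair of miR-29b hairpins is shown because both give the same mature sequence, here in capitals, so a read of miR-29b does not say which locus it came from.
Mir29b-1: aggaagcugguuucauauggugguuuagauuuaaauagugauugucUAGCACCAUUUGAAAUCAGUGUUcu
Mir29b-2: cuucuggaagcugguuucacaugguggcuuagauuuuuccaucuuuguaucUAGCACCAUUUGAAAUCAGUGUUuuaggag

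To show what the seed pairs with, 3′ untranslated regions of GENCODE M21, the longest of each gene, were searched on the messenger strand for TGGTGCT, the reverse complement of the seed. It was found in 8 of 9 genes of collagens and elastic fibres (Col1a1, Col1a2, Col3a1, Col4a1, Col4a2, Col5a1, Col5a2, Eln and Fbn1) and, among all protein-coding genes, in 13.1% of 21022. The exception was Col1a2. These 9 genes were picked as known or likely targets, and their regions were longer, with a median of 1188 against 961 bases, so the share is a description. Of 10 genes of insulin and mTOR signalling, with longer regions still (median 3339 bases), 2 held it. These were Irs1, an insulin receptor substrate, and Pik3r1, a regulatory subunit of PI3-kinase. Tsc1, Tsc2 and Mtor were among those without the match in the region searched. Matches in 3 of these genes are printed, with the match in capitals. They lie at chr11:94952523-94952545 on the plus strand for Col1a1, at chr1:45348967-45348989 on the plus strand for Col3a1, and at chr13:101684502-101684524 on the minus strand for Pik3r1. None of these messenger RNAs was measured here.
Col1a1: gtgggaaggaatttcTGGTGCTa
Col3a1: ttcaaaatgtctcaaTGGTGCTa
Pik3r1: agaggcctttaaccaTGGTGCTt

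By reads inferred from the steps between values, taking 1 step as 1 read, the libraries held between 6489735 and 10901280 miRNA reads in Tsc1 mutants and between 6228497 and 12129069 in controls. Values are normalised reads, that is, reads divided by the authors' scaling factor for each library. Of the 10 libraries, Tsc1 mutant replicate 1 and control replicate 1 stood apart. Their deviations from their group means correlated at 0.81 across miRNAs, a description over miRNAs of 2 libraries. When limma estimated a quality weight for each library, they received the lowest weights, 0.386 and 0.179, against 0.544 to 2.49 for the others. Results on miR-29b and miR-29c, which were high in both, are given with and without them.

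Of the family, miR-29a was by far the most abundant member in both genotypes. It averaged 116048 ± 5673 normalised reads in Tsc1 mutants and 92084 ± 7801 in controls (SD, n = 5 each), and ranked 20 of 285 by mean level. The miRNAs next to it in level were miR-30d above, at a mean of 108289, and miR-27b below, at 102172 normalised reads over the 10 libraries. With ranks of 65 for miR-29c, between miR-222 and miR-31, and 107 for miR-29b, between miR-10b and miR-362-5p, the other members lay far lower. miR-29a made up 96.3 ± 0.722% of the normalised reads of the family in Tsc1 mutants and 95.8 ± 1.85% in controls. Levels of different miRNAs also depend on how well each sequence is captured in a library, so this order is one of reads. The 3 mature RNAs are annotated as 22 or 23 bases long, and an effect of length on this order was not tested.

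In every Tsc1 mutant library miR-29a was higher than in any control library. It stood at 118320, 107539, 113971, 117728 and 122684 normalised reads in Tsc1 mutant replicates 1 to 5, and at 103825, 85334, 91147, 85011 and 95102 in control replicates 1 to 5. The groups did not overlap, and the lowest mutant, replicate 2, was close to the highest control, replicate 1. Behind these values stood 82096 to 136150 inferred reads per mutant library and 50532 to 129925 per control library. On the log2 scale the difference was 0.34 ± 0.096 (SE), or 1.26-fold, and limma gave an adjusted p of 0.0395 over all 285 miRNAs.

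**Figure D1:**
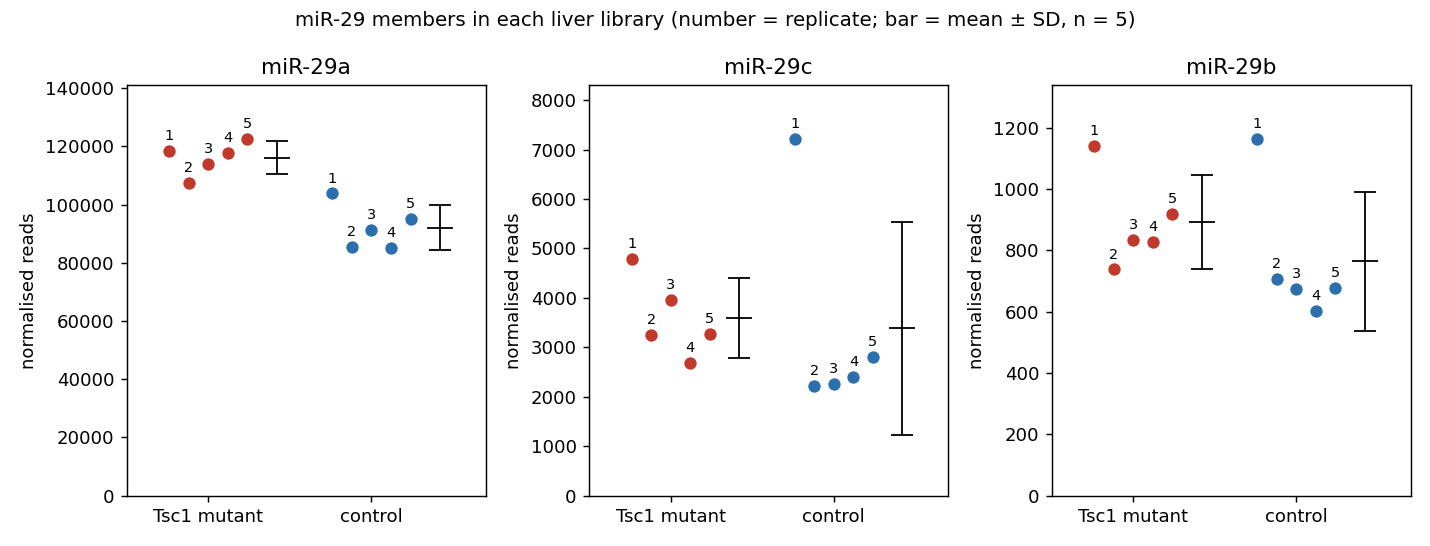
Normalised reads of miR-29a, miR-29c and miR-29b (y axes from 0) in 5 Tsc1 mutant and 5 control liver libraries; numbers are replicates and bars give mean ± SD. For miR-29a every mutant point, from 107539 upwards, lies above every control point, up to 103825; for miR-29c and miR-29b control replicate 1, at 7224 and 1164, is the highest library.

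That call was 1 of 31 in the higher direction among the miRNAs tested, or 10.9%, and 6, or 2.11%, were called lower. Of these 31, 28 belong to the imprinted Dlk1-Dio3 locus, whose rise the study names in its title and whose most abundant member here was miR-127, at 2.62 on the log2 scale. Outside a list of that locus, 3 of 254 miRNAs, or 1.18%, were called higher. Likewise 29 miRNAs, or 10.2%, had every mutant library above every control library, of which 3 were outside the list, again 1.18%, and 2.46% had every mutant below every control. In size the difference of miR-29a was modest. Outside the list, 7.48% of miRNAs had a log2 fold change at least as high, and the median was -0.086.

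What set miR-29a apart in these libraries was its small spread. The SD of its log2 level within a genotype was 0.099, and 4 of 285 miRNAs had a smaller one, against a median of 0.44 over all miRNAs. For miR-29b it was 0.31 and for miR-29c 0.56, with 81 and 186 miRNAs below them. The call of miR-29a was near the threshold and was lost when 9 of the 10 libraries were left out singly, with adjusted p-values between 0.0638 and 0.116, while its log2 fold change stayed between 0.31 and 0.38. It was kept without control replicate 1, the exception, at an adjusted p of 0.00780. Since the adjustment covered all miRNAs, the call also leaned on the many locus miRNAs. With these left out of the fit, the limma adjusted p of miR-29a was 0.139 at the same fold change.

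**Figure D2:**
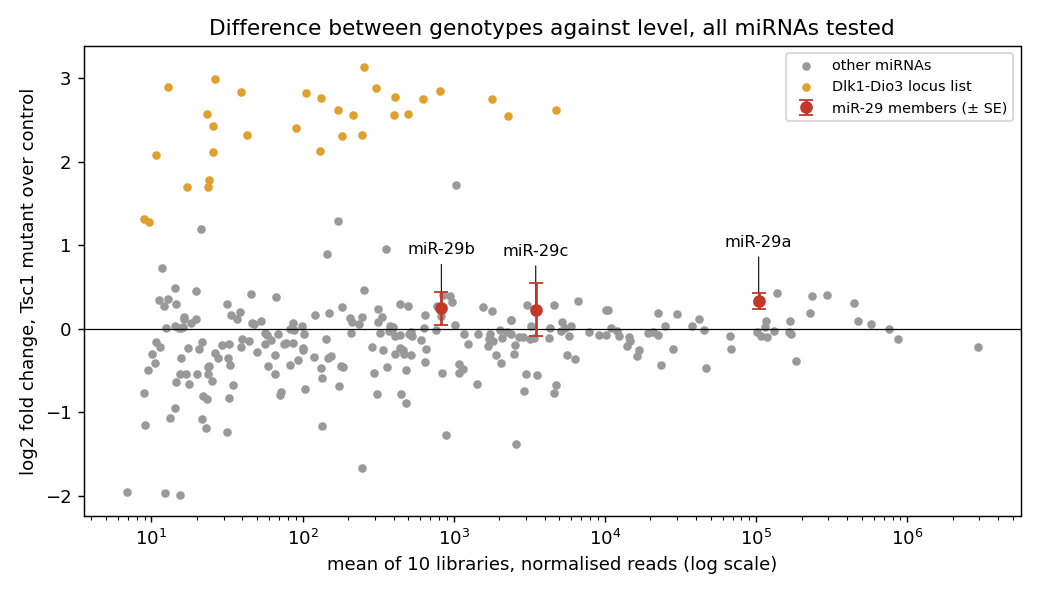
Log2 fold change of Tsc1 mutant over control (y axis) against the mean of 10 libraries in normalised reads (x axis, log scale) for 285 miRNAs; the 3 miR-29 members carry SE bars. The members lie at 0.23 to 0.34 above 0, well below the Dlk1-Dio3 locus points and within the range of the other miRNAs.

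Expression of miR-29c did not pass the threshold, and its values turned on 1 library. It was at 4792, 3245, 3964, 2686 and 3272 normalised reads in Tsc1 mutant replicates 1 to 5, and at 7224, 2221, 2260, 2396 and 2809 in control replicates 1 to 5. Control replicate 1 was the highest of all 10 libraries, at 3.10 times the median of the other 4 controls, and the groups overlapped. Its difference on the log2 scale was 0.23 ± 0.32 (SE; limma adjusted p = 0.777). Without control replicate 1 it was 0.55 ± 0.17, with a limma adjusted p of 0.0573. With both replicates 1 left out, the means were 3292 ± 523 normalised reads in Tsc1 mutants and 2421 ± 269 in controls (SD, n = 4 each), and the log2 fold change was 0.44 (limma adjusted p = 0.0637). Even then the lowest mutant, at 2686, lay below the highest control, at 2809.

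The least abundant member, miR-29b, behaved likewise. It was at 1140, 738, 833, 827 and 917 normalised reads in Tsc1 mutant replicates 1 to 5, and at 1164, 707, 674, 602 and 677 in control replicates 1 to 5. Both replicates 1 were the highest of their groups, at 1.37 times the median of the other 4 in mutants and 1.72 times in controls. Over all libraries the log2 fold change was 0.25 ± 0.20 (SE; limma adjusted p = 0.560). Without control replicate 1 it was 0.41 ± 0.15 (limma adjusted p = 0.0873). With both replicates 1 left out, 829 ± 73.4 normalised reads in Tsc1 mutants stood against 665 ± 44.4 in controls (SD, n = 4 each), and the log2 fold change was 0.32 (limma adjusted p = 0.0932). The groups then did not overlap, as in 15.1% of all miRNAs with every mutant above every control in these 8 libraries. That share includes the Dlk1-Dio3 miRNAs, and the share outside their list was not computed for these 8 libraries. Over all 10 libraries the shares were 10.2% of all miRNAs and 1.18% outside the list. These values rested on 577 to 1312 inferred reads per library in mutants and 358 to 1457 in controls.

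Summed over its members, the family stood at 124252, 111521, 118769, 121242 and 126873 normalised reads in Tsc1 mutant replicates 1 to 5, and at 112213, 88261, 94081, 88009 and 98588 in control replicates 1 to 5. Control replicate 1 lay just above the lowest mutant, replicate 2, and the other controls lay below all mutants. As a share of all inferred miRNA reads, the family made up 1.31 ± 0.0631% in Tsc1 mutants and 1.02 ± 0.182% in controls (SD, n = 5 each). A share does not use the authors' scaling factor, but it depends on the levels of all other miRNAs. Scaled to equal totals, the summed level differed by 0.38 on the log2 scale, and by 0.30 with miR-122 left out of the totals. With the authors' values it differed by 0.33. Among mutants the lowest share was 1.21%, in replicate 2 (95% exact binomial interval 1.20 to 1.21%), and among controls the highest was 1.32%, in replicate 1 (1.31 to 1.32%). By share, control replicate 1 was above 3 of the mutants.

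Ratios between members within a library do not depend on scaling, and they addressed whether members differed in their response to genotype. For every 100 reads of miR-29a there were 4.05, 3.02, 3.48, 2.28 and 2.67 of miR-29c in Tsc1 mutant replicates 1 to 5, and 6.96, 2.60, 2.48, 2.82 and 2.95 in control replicates 1 to 5. The groups overlapped, and control replicate 1 stood far above the rest. The log2 ratio of miR-29c to miR-29a differed between genotypes by -0.11 ± 0.31 (SE, exact permutation p = 0.817, adjusted p = 0.960). For miR-29b to miR-29a the difference was -0.090 ± 0.15 (exact permutation p = 0.563, adjusted p = 0.960), and for miR-29c to miR-29b it was -0.016 ± 0.20 (exact permutation p = 0.960, adjusted p = 0.960). Tests were 2-sided over all 252 splits, with adjustment over the 3 ratios, and the smallest p they can give is 0.00794. A difference between members was thus not detectable, with standard errors as large as these. Without control replicate 1 the 3 differences were above 0, at 0.17, 0.027 and 0.14.

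**Figure D3:**
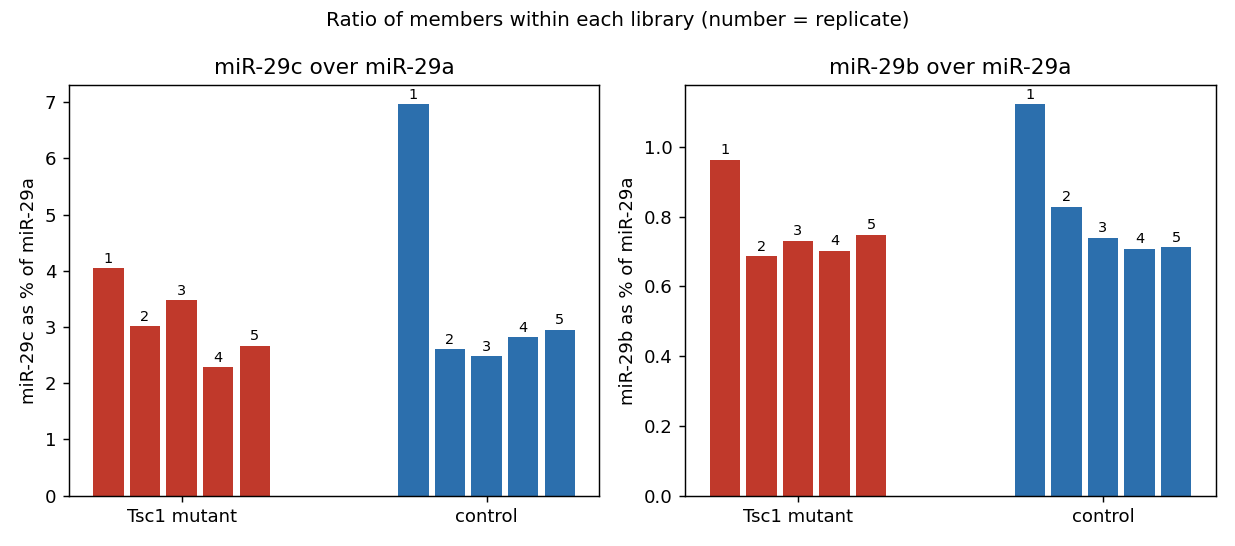
Reads of miR-29c and of miR-29b as a percentage of miR-29a (y axes from 0) in each Tsc1 mutant and control library; numbers are replicates. Tsc1 mutant replicate 1, at 4.05% and 0.964%, is the tallest mutant bar, and control replicate 1, at 6.96% and 1.12%, the tallest of all.

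With genotype means removed, the members rose and fell together across the 10 libraries, which share depth and scaling within each library. Pearson's r was 0.79 between miR-29a and miR-29b (Spearman 0.72), 0.71 between miR-29a and miR-29c (0.58) and 0.89 between miR-29b and miR-29c (0.54). Without both replicates 1, r over 8 libraries was 0.68 between miR-29a and miR-29b. It was 0.15 between miR-29a and miR-29c, and -0.0043 between miR-29b and miR-29c, so those relations rested on the libraries left out. Each of miR-29a and miR-29c has a miR-29b hairpin beside it, and reads of miR-29b cannot be assigned to either.

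Likeness to other miRNAs was read over the 242 others that averaged 20 normalised reads or more. The 5 whose pattern was most like that of miR-29a, by Pearson's r over 10 libraries with genotype means removed, were miR-450a at 0.87, miR-146a at 0.81, miR-20a at 0.78, miR-598 at 0.78 and miR-326 at 0.74. Their own log2 fold changes lay between -0.22 for miR-326 and 0.085 for miR-598, and none passed the threshold. For miR-29b the most alike were miR-142-3p at 0.97, miR-451 at 0.96 and miR-362-3p at 0.95. For miR-29c they were miR-19b at 0.98, miR-34a at 0.98 and miR-511-3p at 0.97. Without both replicates 1, r was lower. With miR-29a it was between 0.51 for miR-326 and 0.80 for miR-450a, with miR-29b it was 0.74 for miR-142-3p, and with miR-29c it was 0.93 for miR-19b.

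The relation of level to hairpin base composition differed between the genotypes. The hairpins of this family are poor in G and C, at 38.6% for miR-29a, 37.4% for miR-29b (mean of its hairpins) and 44.3% for miR-29c, against a median of 50.4% in 270 other miRNAs. In each library the deviation of log2 levels from the mean over libraries was fitted against hairpin GC content. Per 10 percentage points of GC, its slope lay between -0.16 and -0.080 in Tsc1 mutants and between 0.078 and 0.19 in controls. Such slopes cancel out over the libraries, so opposite group means are built in, and only the lack of overlap is a result. Members of the Dlk1-Dio3 list, with a median hairpin GC of 45.6% against 50.5% outside it, contributed to these slopes. Over the miRNAs outside the list the slopes were between -0.096 and -0.0016 in mutants and between 0.0050 and 0.13 in controls.

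With the slope over all miRNAs removed, the log2 fold change of miR-29a was 0.059 ± 0.10 (SE, limma adjusted p = 0.819). With the slope of the miRNAs outside the list removed, it was 0.19 ± 0.094 (limma adjusted p = 0.303). The call was lost in both. For miR-29b the values were -0.062 and 0.080, and for miR-29c 0.090 and 0.15, so the direction of miR-29b turned under the first correction. Whether the slopes come from library preparation or from the miRNAs of each genotype was not tested.

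**Figure D4:**
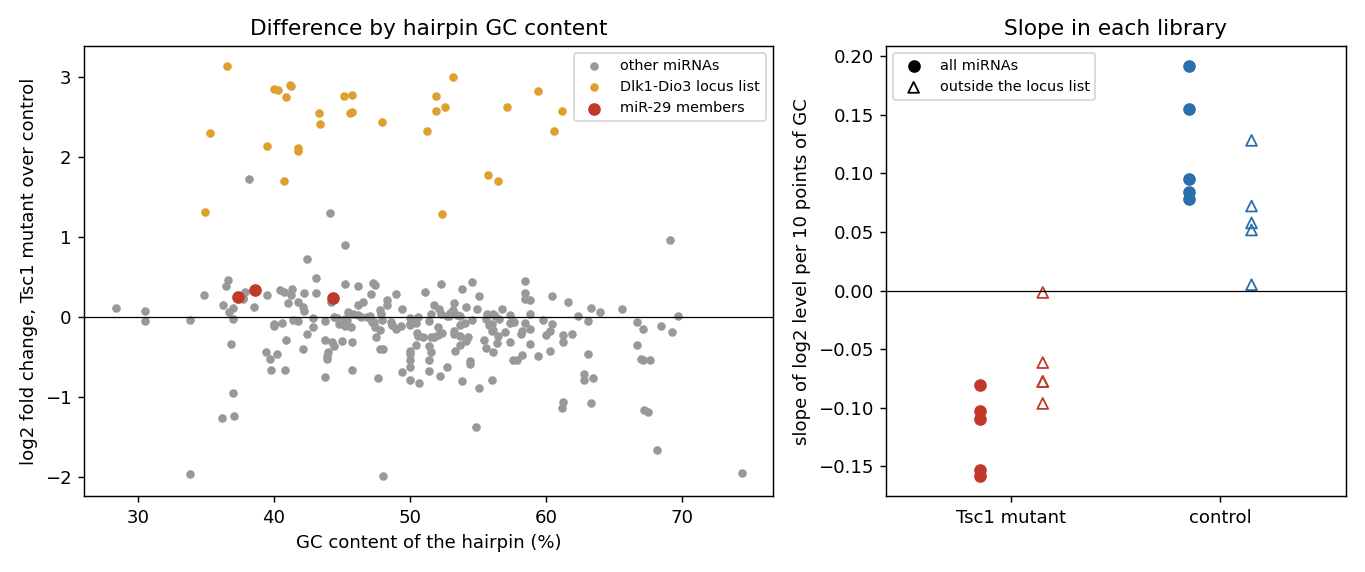
Left, log2 fold change of Tsc1 mutant over control against hairpin GC content for the miRNAs with a hairpin in the annotation; right, slope per 10 percentage points of GC in each library, over all miRNAs (filled) and outside the Dlk1-Dio3 list (open). Slopes are of the deviation of log2 level from the mean over libraries, so they average 0 over the libraries by construction. The miR-29 hairpins lie at 37.4 to 44.3% GC, and all mutant slopes are below 0 and all control slopes above it.

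Beside the family, miRNAs with related roles were read from lists. Of 9 miRNAs linked to insulin and glucose metabolism, 1 rose, which was miR-802, a regulator of hepatic glucose metabolism, at 1583 ± 285 normalised reads in Tsc1 mutants and 495 ± 165 in controls (SD, n = 5 each; log2 fold change 1.72, limma adjusted p = 0.000258). That is 1 of 9, where 10.9% were called higher among all miRNAs and 1.18% outside the Dlk1-Dio3 list. None of the 9 is on that list, and a count of 1 says little. The median log2 fold change of this list was 0.18, against -0.056 over all miRNAs tested. Of its other members, miR-103 and miR-107, which are known to lower insulin sensitivity in liver, were at 0.18 and 0.29, below the threshold. Also below it were miR-378, at 0.44 (limma adjusted p = 0.165), and miR-34a, at 1.30 ± 0.81 (SE; limma adjusted p = 0.424). In the other direction, miR-122, the most abundant of this list, was at -0.21 and miR-143 at -0.39, both below the threshold too. Of 14 miRNAs linked to fibrosis, 0 were called in either direction, with a median of -0.17. Outside the Dlk1-Dio3 list 1.18% of miRNAs were called higher, and 2.11% of all miRNAs were called lower, so 0 of so few says little. In the fibrosis list miR-122 was again the most abundant. There miR-21, which is raised in many fibrotic tissues, was at -0.12, miR-199a-3p at 0.0095, and miR-214, a stellate cell miRNA, at -0.32. Its largest shifts were those of miR-133a, at -1.99 ± 0.72, miR-34a, at 1.30 ± 0.81, and miR-200a, at -0.74 ± 0.47 (SE). For each of them the SD exceeded the mean in controls. The shift of miR-133a, which is also on the striated muscle list, rested on very few reads. It averaged 3.38 ± 2.24 normalised reads in Tsc1 mutants and 27.4 ± 40.6 in controls (SD, n = 5 each). In mutant libraries 3 inferred reads equal 2.55 to 4.30 normalised reads.

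Marker lists of cell types of liver and of other tissues gave no call in either direction. With 1.18% called higher outside the Dlk1-Dio3 list and 2.11% called lower among all miRNAs, that says little for lists this small. For 4 hepatocyte miRNAs the median log2 fold change was -0.019, with miR-122, the dominant liver miRNA, at -0.21. It was -0.084 for 6 stellate and smooth muscle miRNAs, with miR-143 at -0.39, -0.055 for both arms of endothelial miR-126, with miR-126-3p at -0.024, -0.21 for 9 leukocyte miRNAs, with miR-146a at that median, and 0.11 for 3 erythroid miRNAs, with miR-486 at that value. For 5 biliary epithelial miRNAs it was -0.74, with miR-200b at -0.68, for 3 striated muscle miRNAs -1.27, with miR-1a at the same value, and for 3 neural miRNAs -0.43, with miR-128 at the median. The stellate and smooth muscle list summed to 136276 to 249924 normalised reads in Tsc1 mutants and 168823 to 369439 in controls, and the leukocyte list to 18101 to 26093 in mutants and 18637 to 32082 in controls. Both ranges overlapped between genotypes, and their part in the result for miR-29a was not tested. The biliary and striated muscle lists were spread widely among controls. Biliary sums were 3126 to 7014 normalised reads in mutants and 4996 to 35789 in controls. Striated muscle sums were 151 to 919 in mutants and 268 to 5638 in controls, so both overlapped too. In controls the SD exceeded the mean for miR-200b (6538 ± 7685) and miR-1a (1427 ± 2299, n = 5 each). Of the muscle list, miR-206 was higher in mutants, at 0.73 ± 0.45 (SE).

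**Figure D5:**
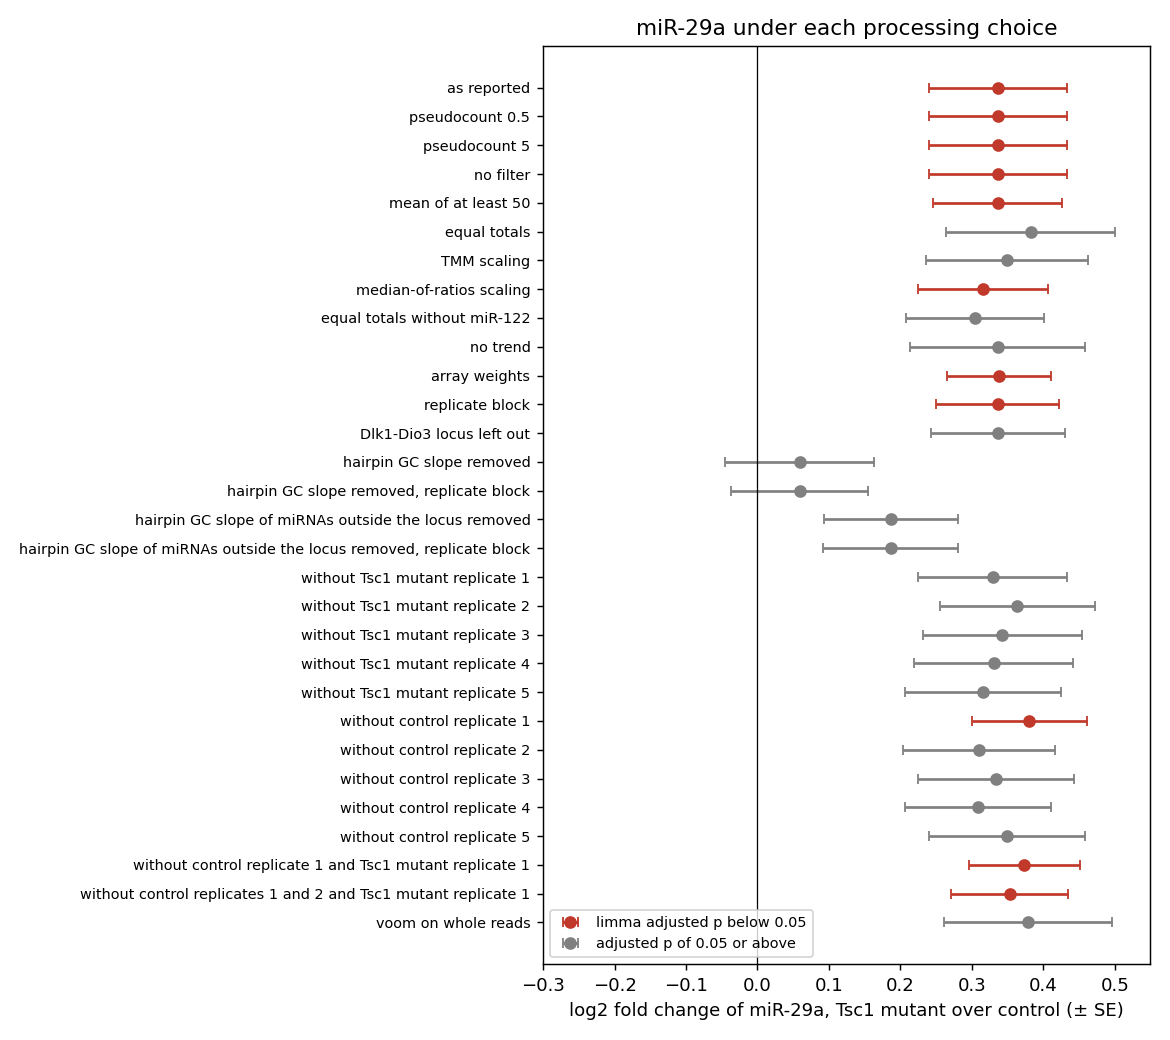
Log2 fold change of miR-29a, Tsc1 mutant over control, ± SE (x axis) under each processing choice (y axis), with the value as reported at the top; red marks a limma adjusted p below 0.05. All values are above 0, most of them near 0.34, and the smallest are those with a GC slope removed, at 0.059 and 0.19.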

How the data were processed

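The deposited table lists 285 miRNAs in 10 columns, which carry the library numbers of the labels. Its values are a normalised signal, made by the authors from miRNA reads and a scaling factor for each library. DESeq, with no version, is named in the submitters' processing notes. Aligner, genome build, miRNA annotation and filters: not given in the sources used here. In each library 100% of values were whole multiples of 1 step within 0.001, and 1 step was taken as 1 read. Low values were too few in this table for a separate check of that step, so reads given here are inferred. They were used for depth, shares, the chi-square of pairs of libraries, and, among the alternatives, the other scalings and voom. Intervals cover counting error only, since reads without molecular identifiers are not independent molecules.

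A pseudocount of 1 was added, log2 was taken, and genotypes were compared by limma 3.58.1 (R 4.3.3) with an intensity trend in its empirical Bayes step. Fold changes are on that log2(value + 1) scale, which understates changes of low miRNAs. P-values were adjusted by Benjamini-Hochberg over all 285 miRNAs, which all reached the required mean of 5 normalised reads, with a threshold of 0.05. Ratios of members were compared with exact permutation tests (scipy 1.17.1). By chi-square, 0 of 45 pairs of libraries agreed within sampling noise. Hairpins of 273 miRNAs, or 95.8%, were found by name in GENCODE M21, and GC content is the mean over a miRNA's hairpins. Sequences of the members are from RefSeq (GRCm38.p6).

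The members, lists and tests were chosen with earlier results of these data known. Named are all members, the miRNAs most like them in pattern and nearest in level, and, for each list, the most abundant and the called members (of the Dlk1-Dio3 list only the former), plus other list members picked after their values were seen. Replicate numbers are shared by the groups, but the labels tie no number to a shared litter, batch or day, so no block was used. Same-numbered libraries did not all deviate together. The alternatives were other pseudocounts, filters and scalings, no trend, library weights, a replicate block, the locus left out, GC slopes removed and libraries left out. After the data were seen, voom and GC slopes outside the locus were added. Plots used matplotlib 3.10.9.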

Additional observations from a re-analysis of the deposited data

Results flagged for a closer look

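In 5 of 16 groups of 5 values for the members, 1 library stood apart by its gap to the next, where chance gives about 0.8. The groups overlap, since the ratios are made from the same values. All 5 were replicates 1. Among controls, replicate 1 was highest for miR-29b, at 1164 against 602 to 707 normalised reads, and for miR-29c, at 7224 against 2221 to 2809. Relative to miR-29a, it was again highest for miR-29b, at 1.12% against 0.708 to 0.828%, and for miR-29c, at 6.96% against 2.48 to 2.95%. Among mutants, replicate 1 was highest for miR-29b relative to miR-29a, at 0.964% against 0.686 to 0.748%.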

How the results depend on the processing

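The log2 fold change of miR-29a was above 0 under all 29 alternatives, between 0.059 and 0.38, with limma adjusted p-values between 0.00527 and 0.819, and it passed in 10 of them. It missed the threshold with equal totals (0.38), TMM scaling (0.35), equal totals without miR-122 (0.30), no trend (0.34), the locus left out (0.34), voom (0.38), and the GC slope removed over all miRNAs (0.059) or outside the locus (0.19), the last pair with and without the replicate block. With single libraries left out it lay between 0.31 and 0.38. Scaling moved the median of all miRNAs by less than 0.1. Neither miR-29b nor miR-29c passed under any alternative. With single libraries left out they ranged from 0.15 to 0.41 and from 0.12 to 0.55, and with the GC slope over all miRNAs removed miR-29b turned to -0.062, with or without the block.

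Single libraries left out moved the log2 ratio difference between -0.18 and 0.027 for miR-29b to miR-29a, -0.21 and 0.17 for miR-29c to miR-29a, and -0.11 and 0.14 for miR-29c to miR-29b. Without both replicates 1 those of miR-29c were 0.062 and 0.12, and without control replicate 2 as well 0.044 and 0.051. The summed level and share kept their direction.

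The replicate block gave miR-29a a limma adjusted p of 0.0300 and 10 miRNAs lower. Same-numbered libraries correlated at 0.81, 0.16, -0.021, 0.46 and 0.048, and 2 of 5 mutants correlated best with the control of their number. Of all miRNAs, 19 were higher and 3 lower at a mean of at least 50, and 1 and 1 with the locus left out. The number lower was 23 with array weights, 11 without both replicates 1 and 13 without control replicate 2 as well. It was between 2 (without Tsc1 mutant replicate 4) and 10 (without control replicate 1) with single libraries left out, where 28 to 34 were higher. Causes of these shifts were not tested. A GC slope on mature sequences was not run, because 39.6% of miRNAs had 1 matching sequence. To compare genotypes, voom was the only method made for counts that was run, on inferred reads.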
